A study of Mus musculus with 18 samples.

Results

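Solute carriers are the membrane transporters that mouse gene symbols list as *Slc* followed by a family number. The tables hold 371 protein-coding genes whose symbol begins in this way. Of these, 169 had a mean level of at least 2 TPM, the read share of a gene corrected for its length, in at least 1 of the 4 groups of CD8+ T cells and are described here, and the other 202 stayed under this level, 49 of them at 0 TPM in all groups. The genes were thus selected on their own levels in these libraries. Just outside the threshold were *Slc29a2*, *Slc7a3* and *Slc15a3*, whose highest group means were 1.90, 1.88 and 1.49 TPM, and just inside were *Slc35e4* at 2.39, *Slc52a3* at 2.49 and *Slc1a4* at 2.82 TPM. The mean was at least 2 TPM in all 4 groups for 145 of the 169 genes and under it in some group for 24. The symbol rule also takes in *Slc9a3r1*, *Slc7a6os* and *Slc4a1ap*, which do not encode transporters.

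The cells were purified CD8+ T cells of OT-I mice, a strain with a transgenic receptor for an ovalbumin (OVA) peptide, cultured in IL-15 and IL-7. For repeat peptide stimulation, OVA peptide at 10 ng/ml was given daily for 5 days, a model of T cell exhaustion *in vitro*. Single peptide stimulated cells met the peptide once for 48 hours and were then washed and kept without it. From day 5 the cells received 1 µM ibrutinib, a kinase inhibitor directed at BTK, or its solvent DMSO for 3 days, and RNA was taken on day 8. Per the paper, peptide remained in the medium of repeat peptide cells during these 3 days. Single peptide cells were without it over that time. The 18 libraries are 4 of repeat peptide cells with DMSO, 5 of repeat peptide cells with ibrutinib, 5 of single peptide cells with DMSO and 4 of single peptide cells with ibrutinib. All come from cells listed as wild type, although the genotype entry of the labels for experiments B, C, D and E names a *btk* knockout. Since the RNA-seq experiment is described without *btk* deficient cells, that entry was read as the name of an experiment. Experiments A, B, C and D gave 1 library of each group, E gave a repeat peptide library with ibrutinib and F a single peptide library with DMSO. Libraries held between 23445922 and 51995372 expected counts, with a median of 27420966, and the 169 genes held 0.859% of all counts. Ribosomal protein genes took 24.7% to 29.5% of TPM in repeat peptide cells with DMSO and 26.5% to 39.8% with ibrutinib, and 30.9% to 40.4% in single peptide cells with DMSO and 33.8% to 42.2% with ibrutinib, so that TPM of other genes moves with this share, and the tests rest on counts normalized by TMM.

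The markers of the labelled cell type were present, with *Cd8a* between 312 and 677 TPM in all libraries. Markers of CD4+ T cells summed to between 15.4 and 20.8 TPM in repeat peptide cells with DMSO and between 1.87 and 11.2 TPM in single peptide cells with DMSO. Of this list *Zbtb7b* had means of 17.7 and 2.94 TPM in these groups, whereas *Foxp3* went the other way at 0.0375 and 1.79 TPM. *Cd4* itself did not pass 0.17 TPM in any library. In repeat peptide cells with ibrutinib the CD4+ T cell list summed to between 5.38 and 16.1 TPM. NK cell markers summed to 2.64 to 11.6 TPM in repeat peptide cells with DMSO, 2.69 to 25.7 TPM with ibrutinib, and 0.59 to 3.67 TPM in single peptide cells with DMSO. Of this list *Klrb1c* had means of 6.03 and 1.48 TPM in repeat and single peptide cells with DMSO. *Ncr1* (0.0075 and 0.314 TPM) and *Klra8* (0.0475 and 0.292 TPM) went the other way. The summed levels of the B cell and myeloid lists stayed at or under 7.10 TPM in every library, and 3 of the 4 erythroid markers were at 0 throughout. The part of other cell types in the results below was not tested.

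Solute carriers move sugars, amino acids, lactate, nucleosides, ions, metals and cofactors across membranes, and the *Slc25* family does so across the inner membrane of mitochondria. Activated T cells take up glucose through GLUT1 and GLUT3, encoded by *Slc2a1* and *Slc2a3*, and large neutral amino acids through the dimer of *Slc7a5* and *Slc3a2*, and they release lactate through the monocarboxylate carriers of *Slc16a1* and *Slc16a3*. Zinc carriers of the *Slc30* family export zinc from the cytosol, whereas those of the *Slc39* family bring it in.

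The promoters of 4 genes that were called in the comparisons below are shown here as examples. Each is the 250 bases before a RefSeq transcription start on GRCm38.p6, on the strand of the gene and 5′ to 3′. *Slc30a4* (chr2:122702664-122702913, minus strand) is the zinc carrier with the smallest adjusted p in the ibrutinib comparison. *Slc16a3* (chr11:120948817-120949066, plus strand) is the lactate carrier that was higher after repeat stimulation. *Slc12a7* (chr13:73763447-73763696, plus strand), a potassium chloride cotransporter, holds the letters CACGTG 38 bases before the start, and *Slc26a10* (chr10:127180583-127180832, minus strand) holds TGATGNAA 46 bases before it. Capitals mark these matches.
Slc30a4: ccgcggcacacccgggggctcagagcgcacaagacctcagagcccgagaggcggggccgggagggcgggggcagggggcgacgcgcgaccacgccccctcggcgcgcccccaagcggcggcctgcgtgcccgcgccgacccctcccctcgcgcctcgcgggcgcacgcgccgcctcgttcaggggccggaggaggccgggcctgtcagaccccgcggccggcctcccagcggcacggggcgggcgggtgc
Slc16a3: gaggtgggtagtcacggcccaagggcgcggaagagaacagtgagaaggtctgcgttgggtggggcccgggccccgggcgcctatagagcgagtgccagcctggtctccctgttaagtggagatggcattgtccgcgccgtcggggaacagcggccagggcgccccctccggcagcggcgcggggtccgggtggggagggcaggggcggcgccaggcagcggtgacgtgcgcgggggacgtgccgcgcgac
Slc12a7: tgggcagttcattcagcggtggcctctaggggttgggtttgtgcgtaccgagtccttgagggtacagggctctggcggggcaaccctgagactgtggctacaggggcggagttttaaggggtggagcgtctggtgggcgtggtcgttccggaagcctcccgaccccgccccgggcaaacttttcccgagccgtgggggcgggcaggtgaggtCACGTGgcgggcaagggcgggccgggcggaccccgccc
Slc26a10: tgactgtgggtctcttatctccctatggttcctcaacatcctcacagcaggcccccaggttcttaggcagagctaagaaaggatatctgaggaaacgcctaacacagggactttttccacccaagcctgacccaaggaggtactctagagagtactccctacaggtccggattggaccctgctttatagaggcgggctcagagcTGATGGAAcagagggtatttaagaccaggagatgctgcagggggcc
CACGTG is the core bound by MYC, MAX and TFEB, and TGATGNAA is bound by ATF4 with its partners. Both were searched on both strands of these windows, which RefSeq gave for 129 of the 169 genes, and overlaps with other motifs were not considered. CACGTG stood in 16.3% of the 129, beside 6.86% of all 27025 genes with a window and 10.3% of 8125 protein-coding genes with at least 2 TPM in a group. It stood in 7 of 46 genes that were higher after repeat stimulation, in 6 of 37 that were lower and in 8 of 46 that were not called. TGATGNAA stood in 2.33% of the 129 genes, beside 3.91% of all genes with a window and 2.34% of the protein-coding genes with at least 2 TPM. By call, these were 1 of 46 genes that were higher after repeat stimulation, 2 of 37 that were lower and 0 of 46 that were not called. A match in these letters is a description of the sequence and not a shown binding site.

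TPM is scaled by gene length and allows levels of different genes to be set side by side. The highest of the 169 genes in every group was *Slc25a5*, which exchanges ADP and ATP across the inner mitochondrial membrane, at a mean of 823 ± 35.5 TPM (SD, n = 4) in repeat peptide cells with DMSO, 667 ± 110 (n = 5) with ibrutinib, 485 ± 44.8 (n = 5) in single peptide cells with DMSO and 400 ± 27.0 (n = 4) with ibrutinib. The mitochondrial phosphate carrier *Slc25a3* came next, between 367 ± 86.9 and 464 ± 49.9 TPM in the 4 groups. *Slc35a4*, a gene of the nucleotide sugar carrier family, lay between 169 ± 53.7 and 206 ± 37.1 TPM, and the glutamine and neutral amino acid carrier *Slc1a5* between 159 ± 53.0 and 187 ± 19.9 TPM. The ranges of *Slc35a4* and *Slc1a5* overlap within their spread, whereas both lie below that of *Slc25a3*. By substrate, the 37 mitochondrial carriers summed to 2096 ± 126 TPM in repeat peptide cells with DMSO and 1655 ± 185 TPM in single peptide cells with DMSO. The 22 genes for amino acids and peptides summed to 637 ± 72.2 and 528 ± 118 TPM, the 12 for sugars to 240 ± 30.6 and 196 ± 41.3 TPM, and the 6 for monocarboxylates and other carboxylates to 154 ± 55.6 and 56.4 ± 12.05 TPM. Levels were used to choose the genes and are given without a test.

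**Figure D1:**
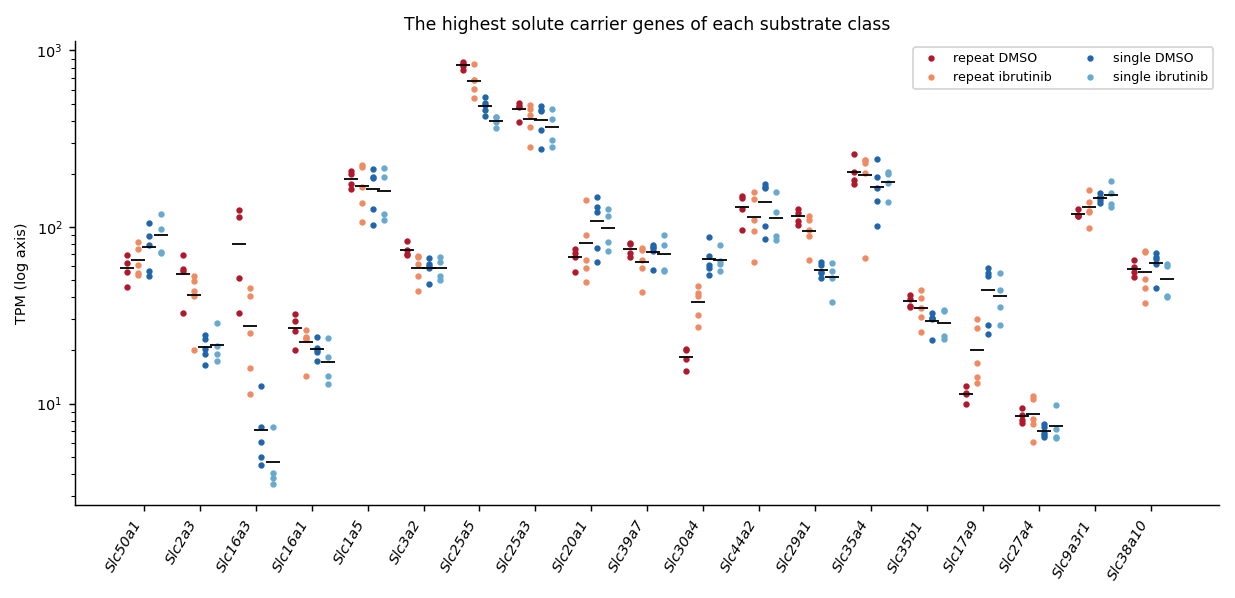
TPM on a log axis of up to 2 of the highest solute carrier genes of each substrate class, with 1 point per library and a black line at the mean of each group (repeat or single peptide, DMSO or ibrutinib). *Slc25a5* is the highest gene in every group, *Slc16a3* is high and *Slc30a4* low in repeat peptide cells with DMSO.

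The first comparison asks which solute carriers differ after repeat peptide stimulation, both groups with DMSO. In repeat peptide cells the glucose transporter gene *Slc2a3*, the lactate exporter gene *Slc16a3* and the amino acid carrier genes *Slc7a5* and *Slc1a4* were higher, and the zinc carrier gene *Slc30a4*, the potassium chloride cotransporter gene *Slc12a7* and the vesicular nucleotide carrier gene *Slc17a9* were lower. The folds ranged from 1.76 for *Slc7a5* to 29.5 for *Slc1a4* among these, and the glutamine carrier gene *Slc1a5* was not called. *Slc1a4* was under 2 TPM in some group, so the TPM threshold in part fixed its fold. All 169 genes could be tested. A gene was called where the adjusted p was under 0.05 over all 12255 tested genes, the mean normalized count at least 50 and the absolute log2 fold change above 0.2. Of the 169 genes, 53 were higher and 51 lower in repeat peptide cells, together 104, while 47.1% of all tested genes were called, 22.8% as higher and 24.2% as lower. Genes that passed the TPM threshold through 1 kind of stimulation had to differ, so the 145 genes at 2 TPM in all groups are the better count. Of these 37 were higher and 44 lower, together 55.9%, beside 52.2% of protein-coding genes held to the same level. Of the other 24 genes 16 were higher and 7 lower. Among them are *Slc1a4*, *Slc15a1*, *Slc6a19*, *Slc9b2*, *Slc17a6*, *Slc35f5*, *Slc26a10*, *Slc16a11* and *Slc16a5*. The threshold in part fixed the folds given for these genes here and below. The counts by substrate class below cover all 169 genes, these 24 included, and have no share of all genes beside them. The median log2 fold change was 0.0173 over the 169 genes and -0.00221 over all tested genes. Solute carriers thus changed in both directions at a share near that of other genes. Fewer cells of a type and less RNA per cell cannot be told apart in these bulk libraries.

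**Figure D2:**
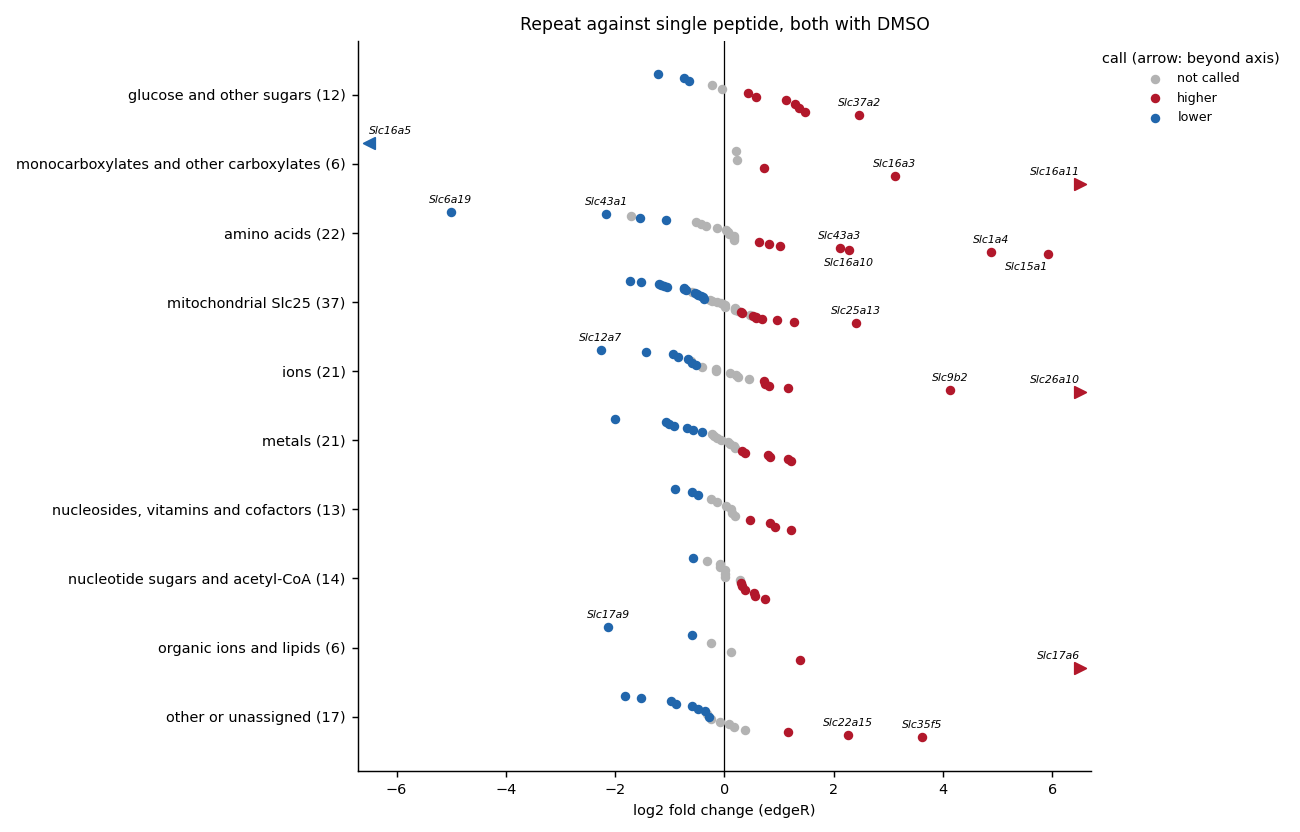
The log2 fold change of repeat against single peptide cells with DMSO for each of the 169 genes by substrate class, with the number of genes in parentheses and calls in color. Arrows stand for fitted values beyond the axis, and genes called with an absolute value above 2 are named. Sugar and monocarboxylate carriers have more genes higher than lower, mitochondrial carriers more lower than higher. These counts include genes under 2 TPM in some group and have no share of all genes beside them.

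Among the 12 sugar carriers 7 were higher, 3 were lower and 2 were not called. The glucose transporter gene *Slc2a3* had normalized counts of 3913, 2857, 5729 and 5186 in repeat peptide cells with DMSO of experiments A to D, and of 1756, 1981, 1821, 1623 and 1904 in single peptide cells with DMSO of A, B, C, D and F. All 4 repeat peptide libraries were above all 5 others, and the fold was 2.43 (log2 fold change 1.28, SE 0.171, adjusted p = 6.86e-06). For *Slc2a1* the counts were 1904, 1660, 3117 and 3206 against 1176, 2193, 1661, 1490 and 1816. These groups overlap, since only experiments C and D were high, and the log2 fold change was 0.57 (SE 0.193, adjusted p = 0.0186). The call of *Slc2a1* was lost without the repeat peptide library of C or of D or without the single peptide library of A, with a largest adjusted p of 0.0973. *Slc37a2*, which exchanges glucose-6-phosphate and phosphate, rose 5.53-fold, from 61.6 ± 25.3 (n = 5) to 341 ± 35.8 (n = 4). *Slc2a6*, a hexose carrier of lysosomes, rose 2.77-fold. The urate carrier *Slc2a9* fell by 1.21 on the log2 scale, and the sugar carrier *Slc50a1* by 0.75.

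Of the 6 carriers of monocarboxylates and other carboxylates 3 were higher and 1 was lower. *Slc16a3*, which encodes the lactate exporter MCT4, had normalized counts of 1659, 1244, 3864 and 4561 in repeat peptide cells with DMSO of experiments A to D and of 255, 473, 373, 262 and 270 in the single peptide libraries. The groups did not overlap although experiments C and D were far above A and B, and the fold was 8.67 (log2 fold change 3.12, SE 0.390, adjusted p = 3.49e-06). *Slc16a11*, a further monocarboxylate carrier, had 200, 192, 374 and 379 in repeat peptide libraries and no count in any of the 5 single peptide libraries, so it was at least 83.7-fold higher against a floor of 3 counts per library. *Slc16a5*, of the same family, showed the opposite pattern with no count in the 4 repeat peptide libraries and 212, 146, 110, 205 and 275 in the single peptide ones, at least 63.7-fold lower. *Slc16a1*, encoding the lactate and pyruvate carrier MCT1, lay at 2657 ± 332 (n = 4) and 2273 ± 215 (n = 5), and its log2 difference of 0.23 (SE 0.121) was not called. *Slc16a11* and *Slc16a5* passed the TPM threshold only through the kind of stimulation in which they are high. Their differences follow in part from this selection.

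**Figure D3:**
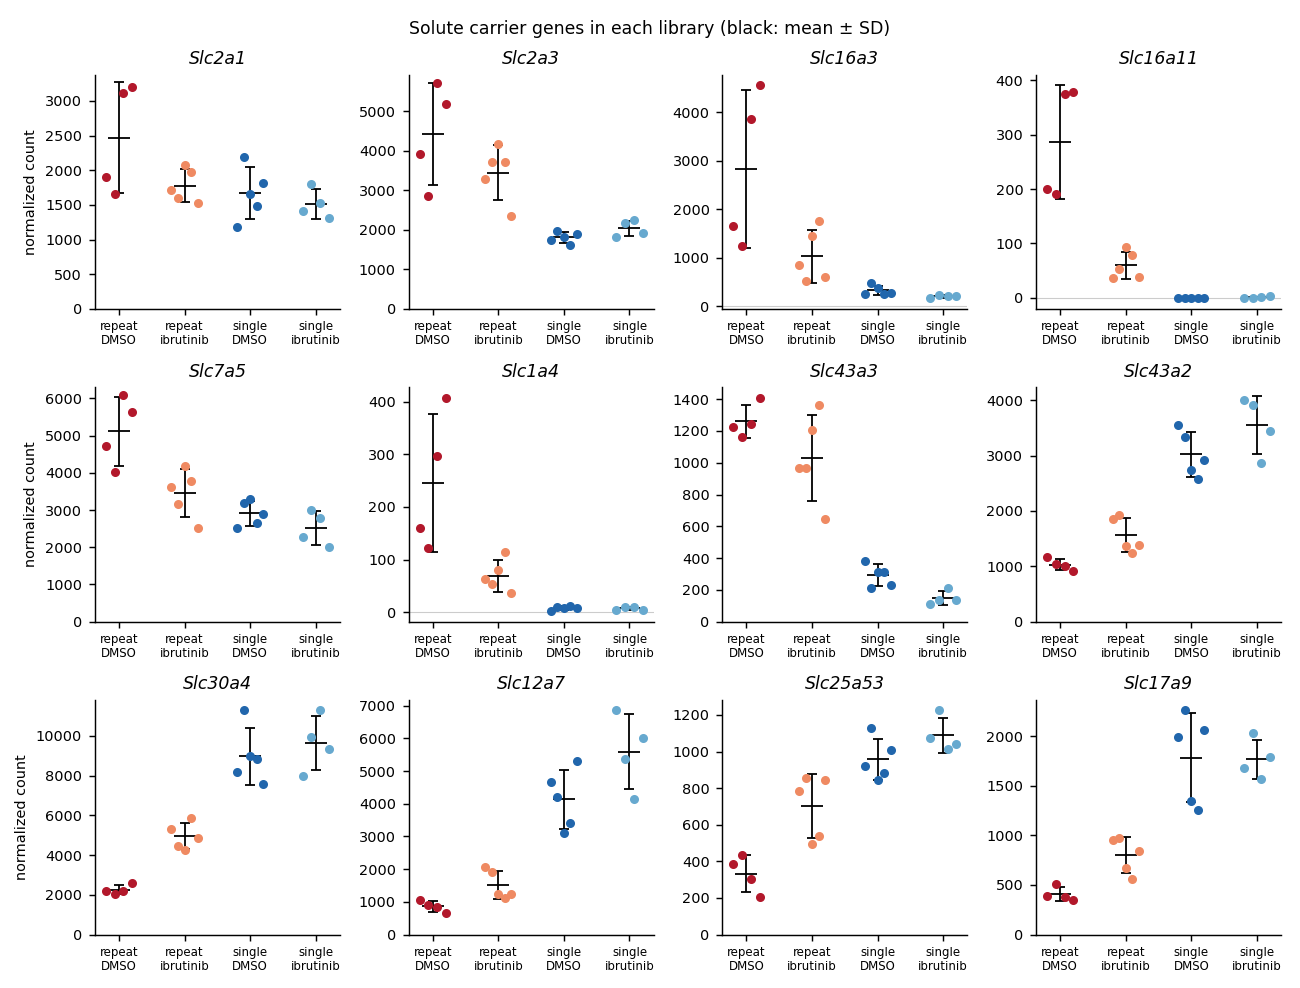
Normalized counts of 12 solute carrier genes in each of the 18 libraries, with points for libraries, a black bar for the group mean and whiskers for the SD. *Slc16a11* is at 0 in all 5 single peptide libraries with DMSO, and *Slc30a4*, *Slc12a7*, *Slc25a53* and *Slc17a9* are lowest in repeat peptide cells with DMSO and have means between the DMSO groups in repeat peptide cells with ibrutinib.

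Of 22 amino acid and peptide carriers 7 were higher, 4 were lower and 11 were not called. *Slc7a5*, the LAT1 chain for leucine and other large neutral amino acids, had 4735, 4013, 6093 and 5633 against 2524, 3203, 3301, 2653 and 2885, with no overlap and a fold of 1.76 (log2 fold change 0.81, SE 0.153, adjusted p = 0.000229). Its partner chain *Slc3a2* was not called at a log2 difference of 0.17 (SE 0.0946). *Slc7a1*, the carrier of arginine and lysine, rose by 0.63 (SE 0.177, adjusted p = 0.0056). The serine and alanine carrier *Slc1a4* had 159, 121, 296 and 407 against 2.28, 9.74, 7.65, 12.03 and 8.95, a fold of 29.5. The peptide carrier *Slc15a1* rose 60.5-fold from a mean of 3.54 to 224. *Slc43a3*, placed here by its family but known as a carrier of purine nucleobases, rose 4.32-fold. Its relatives for leucine and other neutral amino acids moved the other way, as *Slc43a1* fell by 2.16 and *Slc43a2* by 1.55 on the log2 scale. The neutral amino acid carrier *Slc6a19* was at 3.49, 0, 12.7 and 0 in repeat peptide libraries and at 366, 163, 51.0, 42.6 and 127 in single peptide ones, 32.2-fold lower without overlap. *Slc1a4*, *Slc15a1* and *Slc6a19* were under 2 TPM in some group, and their differences follow in part from the selection. The abundant glutamine carriers *Slc1a5*, *Slc38a1* and *Slc38a2* were not called, at log2 differences of 0.08 (SE 0.143), 0.17 (SE 0.123) and -0.35 (SE 0.179). With the replicate block *Slc38a2* passed the threshold at -0.24 (adjusted p = 0.0221).

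The mitochondrial family counted 9 genes that were higher, 15 that were lower and 13 that were not called of 37. *Slc25a13*, the aspartate and glutamate carrier, was at 668, 657, 749 and 735 in repeat peptide cells and at 116, 117, 170, 174 and 81.8 in single peptide cells with DMSO, a fold of 5.32 (log2 fold change 2.41, SE 0.251, adjusted p = 4.08e-07) with no overlap. *Slc25a24*, which exchanges ATP-magnesium for phosphate, rose 2.42-fold. *Slc25a5* rose by 0.57 (SE 0.150) and the citrate carrier *Slc25a1* by 0.53 (SE 0.125) on the log2 scale, whereas *Slc25a3* differed by 0.01 (SE 0.100). Some reads of *Slc25a5* also fit other genes, as 13 of the 169 genes had fractional expected counts, and its value is less certain. The same holds for *Slc10a3*, *Slc22a5*, *Slc28a2*, *Slc39a7* and *Slc5a3*, which are reported in other paragraphs. The basic amino acid carrier *Slc25a29* fell by 1.74, *Slc25a53* by 1.52 and *Slc25a45* by 1.16 on the log2 scale.

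Ion carriers were split into 6 that were higher, 7 that were lower and 8 that were not called. *Slc12a7* was at 1060, 899, 834 and 654 in repeat peptide cells and at 4669, 4208, 3095, 3425 and 5304 in single peptide cells with DMSO, a 4.80-fold fall (log2 fold change -2.26, SE 0.219, adjusted p = 1.64e-07). Every repeat peptide library was below every single peptide library. *Slc12a2*, the sodium, potassium and chloride cotransporter, rose by 0.82 (SE 0.180). The phosphate carrier *Slc20a1* fell by 0.59 (SE 0.181). Of the sodium and proton exchangers, *Slc9b2* rose 17.5-fold and *Slc9a5* rose 2.24-fold, and *Slc9a7* of the Golgi fell by 1.43 on the log2 scale. *Slc26a10*, of the anion carrier family, was at 206, 248, 308 and 233 in repeat peptide libraries and had no count in the single peptide ones, at least 72.7-fold higher. Its exons share 17.8% of their bases with *B4galnt1* on the opposite strand, which had 21020 ± 2850 (n = 4) and 16930 ± 853 (n = 5) normalized counts in the same groups. The library kit keeps strand, but the counting setting is not given in the sources used here. All expected counts of *Slc26a10* were whole numbers, and whether reads of *B4galnt1* entered them was not tested.

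Among the metal carriers 6 were higher, 7 were lower and 8 were not called of 21. *Slc30a4*, a zinc carrier of intracellular vesicles, was at 2203, 2050, 2177 and 2579 in repeat peptide cells and at 8154, 11320, 8994, 8823 and 7562 in single peptide cells with DMSO. The groups were far apart, and the 3.98-fold fall had a log2 fold change of -1.99 (SE 0.135, adjusted p = 2.13e-09). *Slc30a7*, which loads zinc into the Golgi, fell by 1.07 and the iron and manganese carrier *Slc11a2* by 0.92 on the log2 scale. Of the zinc importers, *Slc39a4* rose by 1.21 and *Slc39a13* by 1.17. Exons of *Slc39a7* share 80.7% of their bases with the transcript *Gm20427* on the same strand, so its counts are uncertain. The abundant *Slc39a6* and *Slc39a7* were not called, at -0.19 (SE 0.113) and -0.13 (SE 0.0931), and *Slc39a6* passed the threshold with the replicate block at -0.23 (adjusted p = 0.0279).

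Carriers of nucleosides, vitamins and cofactors numbered 4 that were higher, 3 that were lower and 6 that were not called. The nucleoside carrier *Slc29a1* rose by 0.84 (SE 0.121), the thiamine carrier *Slc19a2* by 1.22 (SE 0.152) and the choline carrier *Slc44a1* by 0.93 (SE 0.146), whereas the sodium dependent nucleoside carrier *Slc28a2* fell by 0.91 and the biotin and pantothenate carrier *Slc5a6* by 0.60. Nucleotide sugar and acetyl-CoA carriers were higher for 6 genes and lower for 1 of 14, all within 0.74 of 0 on the log2 scale. *Slc35d1*, for UDP-glucuronic acid, rose by 0.74 and *Slc33a1*, for acetyl-CoA, by 0.55, while the GDP-fucose carrier *Slc35c1* fell by 0.57. Of 6 carriers of organic ions and lipids 2 rose and 2 fell. *Slc17a6*, best known as the vesicular glutamate transporter VGLUT2 of neurons, had 1052, 374, 1054 and 1001 in repeat peptide libraries and at most 6.49 in single peptide libraries with DMSO. *Slc27a1*, a fatty acid carrier, rose 2.61-fold, the nucleotide carrier *Slc17a9* of secretory vesicles fell 4.36-fold, and the carnitine carrier *Slc22a5* fell 1.51-fold. In the remaining 17 genes 3 were higher and 8 lower, with *Slc35f5* 12.3-fold higher and the urea carrier *Slc14a1* 3.55-fold lower.

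The second comparison asks what ibrutinib changed in repeat peptide stimulated cells, in 5 libraries with the drug against 4 with DMSO. The monocarboxylate carrier genes *Slc16a3* and *Slc16a11* and the amino acid carrier genes *Slc1a4*, *Slc7a1* and *Slc7a5* fell, whereas *Slc30a4*, *Slc12a7*, *Slc17a9* and the mitochondrial carrier genes *Slc25a53* and *Slc25a45* rose. Of the 169 genes 11 were higher and 8 were lower with ibrutinib, together 19 or 11.2%, while 5.92% of all tested genes were called, 4.01% as higher and 1.92% as lower. Of the 145 genes at 2 TPM in all groups 14 were called, 9.66% beside 6.04% of protein-coding genes held to the same level. Of these 14 genes 10 were higher and 4 lower, whereas the other 24 of the 169 gave 1 higher and 4 lower. Genes that passed the threshold only through repeat peptide cells with DMSO were selected for high values there, which favors a fall. For *Slc1a4* that group held the highest mean, at 2.82 TPM. The median log2 fold change was 0.00157 over the 169 genes and 0.00427 over all tested genes. Libraries of an experiment deviate together, and with the experiment as a replicate block 38 genes were called, 24 as higher and 14 as lower, including all 19 and *Slc16a5*, which had no count with DMSO and at most 9 in a library with ibrutinib, or 22.5% beside 13.8% of all tested genes in that fit. There the libraries of E and F, each alone in its experiment, carry no weight. The count also hangs on single libraries, as it was 8 without the DMSO library of D, 11 without that of C, and 11 without the ibrutinib library of A or of B.

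**Figure D4:**
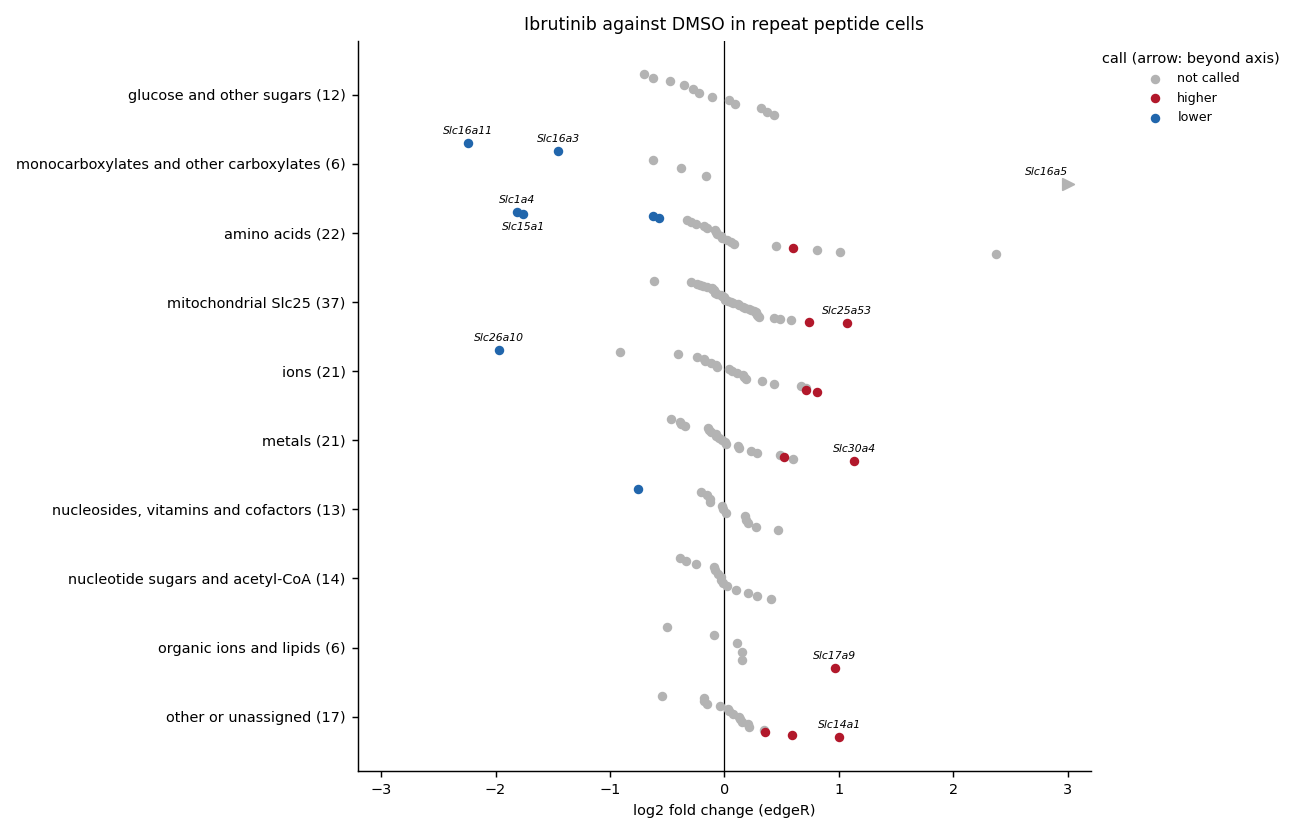
The log2 fold change of ibrutinib against DMSO in repeat peptide cells for each of the 169 genes by substrate class, with calls in color and genes called above 0.95 in absolute value named. The arrow is *Slc16a5*, whose fitted value rests on at most 9 counts in a library and which was not called without the replicate block. Called genes that fell lie among monocarboxylate, amino acid, ion and vitamin carriers, and no sugar carrier was called.

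The 8 genes that fell include carriers of lactate, amino acids, peptides and thiamine. Of these 8 genes, 4 are among the 24 genes under 2 TPM in some group, namely *Slc16a11*, *Slc1a4*, *Slc15a1* and *Slc26a10*. *Slc16a11* was at 36.4, 53.5, 92.9, 78.0 and 39.3 with ibrutinib in experiments A to E, below all DMSO libraries (192 to 379), a 4.74-fold fall (log2 fold change -2.24, SE 0.403, adjusted p = 0.00413). *Slc16a3* was at 841, 519, 1446, 1767 and 593 with ibrutinib. These values overlap the DMSO libraries, of which A and B were at 1659 and 1244, but the fall was present in each of experiments A to D, by 0.98, 1.26, 1.42 and 1.37 on the log2 scale. The fitted fall was 2.74-fold (log2 fold change -1.45, SE 0.370, adjusted p = 0.0233), and the call was lost without any 1 of 5 libraries, those of C and D with DMSO and of A, B and E with ibrutinib, and when no genes were filtered (largest adjusted p = 0.127). *Slc1a4* was at 63.1, 53.5, 79.4, 115 and 35.7, below every DMSO library, and fell 3.52-fold (log2 fold change -1.81, SE 0.395, adjusted p = 0.00917), a call lost without the DMSO library of D. *Slc15a1* fell 3.38-fold, from 224 ± 56.6 (n = 4) to 65.9 ± 24.7 (n = 5), and *Slc26a10* fell 3.93-fold, from 249 ± 43.4 to 63.3 ± 48.1. For *Slc26a10* the groups do not overlap, yet the call was lost without any DMSO library or the ibrutinib library of A, B or D. That of *Slc15a1* was lost without the DMSO library of A or D or the ibrutinib library of A, B or E.

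The smaller falls concern abundant carriers. *Slc7a5* was at 3607, 3161, 4186, 3794 and 2512 with ibrutinib and 4013 to 6093 with DMSO, an overlap that involves experiments B and C only, and fell by 0.57 on the log2 scale (SE 0.153, adjusted p = 0.0319). *Slc7a1* fell by 0.63 (SE 0.177, adjusted p = 0.0398) with overlapping libraries. Each was lower with ibrutinib in all 4 experiments, by 0.34 to 0.57 for *Slc7a5* and by 0.17 to 0.73 for *Slc7a1*. Each call was lost without the DMSO library of C or D or the ibrutinib library of A, B or E (largest adjusted p = 0.137 and 0.127). The call of *Slc7a1* was also lost without DMSO library A and when no genes were filtered. The thiamine carrier *Slc19a2* was at 359, 365, 527, 440 and 309 with ibrutinib against 641, 593, 796 and 679 with DMSO. Its groups did not overlap, the fall was 0.76 (SE 0.150, adjusted p = 0.00478) and the call held in every fit without 1 library. The partner chain *Slc3a2* was not called at -0.25 (SE 0.0946, adjusted p = 0.127), and passed with the replicate block at -0.25 (adjusted p = 0.0452).

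None of the 12 sugar carriers was called by edgeR without the block, while 6 had an unadjusted p under 0.05 and DESeq2's Wald test called 2. *Slc2a1* was at 1717, 1597, 2071, 1974 and 1532 with ibrutinib, and its log2 difference was -0.47 (SE 0.193, adjusted p = 0.154). *Slc2a3* was at 3289, 3708, 4186, 3731 and 2349, and its log2 difference was -0.36 (SE 0.170, adjusted p = 0.232). For both genes the libraries overlapped those with DMSO, and these values do not show that the glucose transporter genes were unaffected. With the replicate block 4 sugar carriers were called, *Slc37a1* at 0.35, *Slc37a2* at -0.84, *Slc50a1* at 0.29 and *Slc5a3* at -0.49, with adjusted p between 0.00537 and 0.0388. Of 14 nucleotide sugar and acetyl-CoA carriers none was called without the block or by DESeq2, 3 had an unadjusted p under 0.05, and with the block *Slc35c2* was called at -0.25 (adjusted p = 0.0394).

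Of the 11 genes that rose, *Slc30a4* had the smallest adjusted p. It was at 5314, 4466, 4228, 5844 and 4873 with ibrutinib in experiments A to E against 2050 to 2579 with DMSO. Every ibrutinib library lay above every DMSO library and below every single peptide library, and the rise was 2.20-fold (log2 fold change 1.13, SE 0.130, adjusted p = 5.23e-05). It was present within each experiment, at 1.27, 1.12, 0.96 and 1.18. *Slc25a53*, a mitochondrial carrier, was at 782, 855, 492, 538 and 843 against 206 to 437, without overlap, and rose 2.10-fold (log2 fold change 1.07, SE 0.198, adjusted p = 0.00281). *Slc17a9* was at 952, 976, 667, 556 and 844 against 349 to 513 and rose 1.95-fold (adjusted p = 0.00538). *Slc12a7* was at 2052, 1901, 1228, 1123 and 1240 against 654 to 1060, again without overlap, and rose 1.75-fold (adjusted p = 0.0256), a call lost without any 1 of 4 libraries, those of C and D with DMSO and of A and B with ibrutinib. *Slc25a45* rose by 0.74, the Golgi exchanger *Slc9a7* by 0.71, *Slc43a2* by 0.59, *Slc35g1* by 0.59, *Slc11a2* by 0.52 and *Slc14a1* by 1.00 on the log2 scale. The smallest called rise was *Slc10a3* at 0.36 (SE 0.0950, adjusted p = 0.0307), which was named after its value was seen. The calls of *Slc43a2* and *Slc14a1* were lost without the DMSO library of C or D, that of *Slc10a3* without the DMSO library of A, C or D or the ibrutinib library of A or B, and that of *Slc9a7* without any library of the comparison but the ibrutinib library of D. Genes called only with the replicate block include *Slc43a1* at 0.82 and *Slc30a7* at 0.53 (adjusted p = 0.00238 and 0.00367). *Slc9a7* and *Slc10a3* were also not called when no genes were filtered. With an offset for effective length *Slc43a2*, *Slc9a7* and *Slc11a2* were not called.

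**Figure D5:**
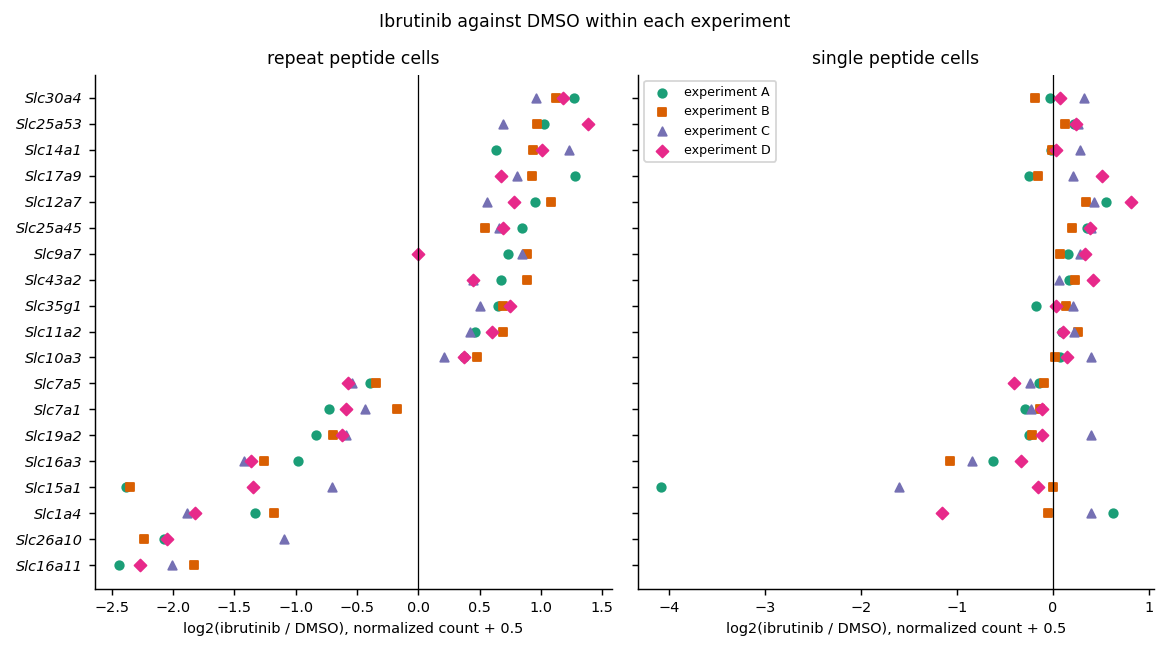
The log2 ratio of ibrutinib to DMSO within experiments A, B, C and D for the 19 genes called in repeat peptide cells (left) and for 17 of them in single peptide cells (right), computed on normalized counts plus 0.5. In repeat peptide cells 18 of the 19 genes move the same way in all 4 experiments, and *Slc9a7* is near 0 in D. The genes were called on these same libraries, so this agreement is not separate support, and its share over all tested genes was not counted. *Slc16a11* and *Slc26a10* are left out on the right, where they are at or under 3 counts.

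These 19 genes can be set beside the effect of repeat stimulation, which was measured against the same DMSO libraries of repeat peptide cells, so that the values are not independent. *Slc30a4* differed by -1.99 with repeat stimulation and by 1.13 with ibrutinib, *Slc12a7* by -2.26 and 0.81, *Slc17a9* by -2.12 and 0.96, and *Slc25a53* by -1.52 and 1.07. *Slc16a3* differed by 3.12 and -1.45, *Slc1a4* by 4.88 and -1.81, *Slc7a5* by 0.81 and -0.57, and *Slc19a2* by 1.22 and -0.76. Other genes that differed with repeat stimulation were not called with ibrutinib, as for *Slc17a6* at 8.16 and -0.50 (SE 0.481), *Slc43a3* at 2.11 and -0.29 (SE 0.206), *Slc22a15* at 2.27 and -0.15 (SE 0.230) and *Slc25a24* at 1.28 and 0.07 (SE 0.162).

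In single peptide stimulated cells ibrutinib changed few solute carriers. No gene was called higher and 2 were called lower, 1.18% of the 169 beside 3.04% of all tested genes (0.351% higher and 2.69% lower), and 16 of the 169 had an unadjusted p under 0.05. Of the 145 genes at 2 TPM in all groups 1 was called, beside 3.11% of protein-coding genes held to that level. *Slc43a3* was at 384, 214, 314, 312 and 233 with DMSO and at 110, 138, 211 and 138 with ibrutinib, and fell by 0.96 on the log2 scale (SE 0.221, adjusted p = 0.0214) without overlap. The sodium and proton exchanger *Slc9a5* was at 319, 315, 245, 167 and 221 with DMSO and at 103, 170, 130 and 78.1 with ibrutinib, and fell by 1.07 (SE 0.258, adjusted p = 0.0284), where the DMSO library of D lay just under the ibrutinib library of B. Both were lower in all 4 experiments. Without the single peptide DMSO library of A or of C, or the ibrutinib library of A or of D, no gene was called, and without the DMSO library of B 1 was. The call of *Slc43a3* was also lost without the ibrutinib library of B. With the replicate block 13 genes were called, 10 as higher and 3 as lower, or 7.69% beside 9.12% of all tested genes, among them *Slc12a7* at 0.55 (adjusted p = 0.00734), and DESeq2's Wald test called 4.

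Whether the effect of ibrutinib differed between repeat and single peptide cells was tested as an interaction. A single gene was called, 0.592% of the 169 beside 1.26% of all tested genes (1.04% higher and 0.212% lower), with 20 of the 169 at an unadjusted p under 0.05, and it is among the 145, where 1.23% of protein-coding genes held to that level were called. *Slc30a4* rose by 1.13 in repeat peptide cells and differed by 0.10 (SE 0.126) in single peptide cells, where counts were 7562 to 11320 with DMSO and 7985, 9943, 11286 and 9328 with ibrutinib, and the difference between the effects was 1.03 (SE 0.181, adjusted p = 0.00556). This call held in every fit without 1 library. With the replicate block 8 genes were called, 6 as higher and 2 as lower, or 4.73% beside 5.54% of all tested genes, and *Slc17a9* and *Slc25a53* were among them at 0.84 and 0.79 (adjusted p = 0.0084 and 0.0195). *Slc43a3* and *Slc9a5* had interaction values of 0.67 (adjusted p = 0.387) and 0.66 (adjusted p = 0.514), which with the block became 0.87 and 0.84 (adjusted p = 0.0356 and 0.0331). For the monocarboxylate and amino acid carriers that fell with ibrutinib in repeat peptide cells, the difference from single peptide cells was not called without the block, as for *Slc16a3* at -0.76 (SE 0.534), *Slc7a5* at -0.36 (SE 0.217) and *Slc7a1* at -0.40 (SE 0.250). With the block that of *Slc16a11*, which is at or under 3 counts in single peptide cells, was called (adjusted p = 0.048).

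Repeat and single peptide cells were also compared in the presence of ibrutinib, in libraries that the DMSO comparison did not use but that come largely from the same experiments. Of the 169 genes 40 were higher and 47 lower in repeat peptide cells, together 51.5% beside 38.4% of all tested genes (18.7% higher and 19.7% lower), and of the 145 genes at 2 TPM in all groups 45.5% beside 42% of protein-coding genes held to that level. All 40 of the higher genes were also higher with DMSO, where they are 40 of 53. Of the 47 lower genes 38 were also lower with DMSO, where they are 38 of 51, and the other 9 had not been called. This overlap was not counted over all tested genes and cannot be read as particular to solute carriers. Of the 24 genes under 2 TPM in some group 15 were higher and 6 lower with ibrutinib, and for these the threshold in part fixed the difference. *Slc16a11* was at least 20.8-fold higher and *Slc26a10* at least 21.98-fold higher in repeat peptide cells with ibrutinib, against a floor of 3 counts per library. *Slc16a3* differed by 2.36 (SE 0.406), *Slc43a3* by 2.79 (SE 0.232), *Slc17a6* by 8.85 (SE 0.886), *Slc12a7* by -1.89 (SE 0.205) and *Slc30a4* by -0.96 (SE 0.126) on the log2 scale, and all were called. *Slc2a1* at 0.23 (SE 0.195) and *Slc7a1* at 0.23 (SE 0.178) were not called, whereas *Slc2a3* at 0.76 (SE 0.174) and *Slc7a5* at 0.45 (SE 0.155) were. The call of *Slc7a5* was lost without the ibrutinib library of repeat peptide cells of C or D or of single peptide cells of A or D (largest adjusted p = 0.0759).

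A list of 18 genes with related roles but other symbols was read in the same fit, of which 14 were tested. With repeat stimulation 5 were higher, 2 lower and 7 not called, and with ibrutinib in repeat peptide cells 1 was higher and 13 were not called. Of all tested genes 47.1% and 5.92% were called in these comparisons, and the list was not tested against these shares. *Bsg*, whose product basigin carries MCT1 and MCT4 to the cell surface, rose by 0.81 (SE 0.176, adjusted p = 0.000822) with repeat stimulation and was not called with ibrutinib at -0.50 (SE 0.175, adjusted p = 0.0995). *Txnip*, which lowers glucose uptake by GLUT1, fell by 0.83 (SE 0.231, adjusted p = 0.0053) with repeat stimulation and was not called with ibrutinib at 0.40 (SE 0.228). *Mpc1*, a subunit of the mitochondrial pyruvate carrier, rose by 0.68 (SE 0.233), and its partner *Mpc2* was not called at -0.33 (SE 0.225). The organic anion carrier *Slco3a1* fell by 2.76 (SE 0.167) with repeat stimulation and rose by 1.45 (SE 0.159, adjusted p = 3.83e-05) with ibrutinib in repeat peptide cells.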

How the data were processed

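RNA-seq covered 18 libraries in 4 groups of OT-I CD8+ T cells. Per the submitters' processing notes and the methods, the authors trimmed reads with Trim Galore, mapped them to GRCm38 and quantified them with RSEM 1.3.1. The deposited expected counts are estimates by the authors, in which RSEM divides reads that fit several genes between them. In the deposited TPM columns the authors' values are corrected for transcript length and sum to the same total in each library, and the authors' effective length in bases served in an alternative only.

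Genes (45143 of 45706 identifiers) were matched to GENCODE M21. Expected counts were rounded, limited to 27903 protein-coding and lncRNA genes and filtered with filterByExpr, leaving 12255. They were normalized by TMM and tested in R 4.3.3 with edgeR 4.0.16 (glmQLFit robust, glmQLFTest) in a single fit of 4 groups, with Benjamini-Hochberg adjustment over all tested genes. Normalized counts are scaled to the mean effective library size, and SE is that of the log2 fold change. The thresholds of a call (0.05 for the adjusted p-value, 50 for the mean normalized count, 0.2 for the absolute log2 fold change) held in every fit, except one with no minimum mean count. A fold against a group at 0 used a floor of 3 counts per library. P-values measure the spread between cultures, and counting error is small at this depth except for genes with a few counts.

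Named genes were, apart from 2 not reported here, fixed examples of each substrate class, the highest 2 genes of each class, the called genes of largest rise and fall in each class (up to 2 a direction), the few called in the other ibrutinib comparisons, genes at the threshold and genes at or under 3 counts in a group. Substrate classes were assigned by hand from gene families. The members and lists were chosen with earlier results of these data known. Same-experiment libraries in different groups deviated together (24 pairs, correlations 0.16 to 0.494, other pairs at a median of -0.076), and the experiment comes from the genotype entry of the labels. No library was a copy of another of its group (chi-square over degrees of freedom 27.8 or more). Alternatives were DESeq2 size factors, no filter, no minimum mean count, the experiment as block, a length offset, DESeq2 1.42.0 and each library left out. The scripts were tested on simulated counts.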

Additional observations from a re-analysis of the deposited data

Results flagged for a closer look

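In 266 groups of 4 or 5 libraries of the named genes, 15 had a library set apart from the others by Dixon's test, where chance gives about 1 in 20. In repeat peptide cells with DMSO, *Slc17a6* was at 374.2 and *Slc35f5* at 169.8 normalized counts in experiment B, each the lowest, and *Slc33a1* at 1137 in D, the highest. In repeat peptide cells with ibrutinib, *Slc27a1* was lowest in E at 211.8 and *Slc39a4* lowest in A at 275.3. In single peptide cells with DMSO, library C was lowest for *Slc11a2* (2794) and highest for *Slc38a10* (5670) and *Slc3a2* (4383), and library F was highest for *Slc14a1* (1408). In single peptide cells with ibrutinib, library B was lowest for *Slc35b1* (674.4) and *Slc44a1* (361.6) and highest for *Slc43a1* (828.98), A was highest for *Slc6a19* (628.6), C was highest for *Slc14a1* (1243) and D was lowest for *Slc39a6* (3059). The effect of ibrutinib on *Slc30a4* differed between repeat and single peptide cells by 1.03 on the log2 scale in the interaction test.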

How the results depend on the processing

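The counts of called genes in repeat against single peptide cells stayed within 1.5 times under every alternative, at 97 to 119 with DMSO and 71 to 112 with ibrutinib. With the experiment as a replicate block, ibrutinib changed 38 genes in repeat peptide cells in place of 19 and 13 in single peptide cells in place of 2, and 8 had an interaction in place of 1, while calls over all tested genes went from 726 to 1694, from 373 to 1118 and from 154 to 679. Of the calls of named genes made without the block none was lost with it, and *Slc38a2*, *Slc39a6* and *Slc3a2* are among the calls it added. DESeq2's Wald test called 4 genes in single peptide cells and 5 in the interaction. Without 1 library, the counts were 8 to 21 for ibrutinib in repeat peptide cells, 0 to 2 in single peptide cells and 1 to 2 for the interaction, which was 2 without the repeat peptide ibrutinib library of C or D or the single peptide DMSO library of D. Of the 19 calls with ibrutinib in repeat peptide cells, 8 held without each library in turn, and 54 of 56 named calls of repeat against single peptide with DMSO and 41 of 50 with ibrutinib did.

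Small differences that were not called turned sign. *Slc19a1* with ibrutinib in repeat peptide cells went to 0.0049 with no filter, 0.047 with the block and 0.012 with the length offset, and ranged from -0.042 to 0.039 without 1 library. *Slc38a2* in the same comparison ranged from -0.030 to 0.16 without 1 library. *Slc30a7*, which was called lower in repeat than in single peptide cells with ibrutinib, went to 0.029 with the length offset. The cause was not tested. Depth limits only genes of a few counts, such as *Slc16a5* and *Slc16a11*.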
